A study of Mus musculus with 19 samples.

Results

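The Hox clusters are the 4 stretches of the mouse genome that hold the Hox genes, and they were described here by the peaks of 5-hydroxymethylcytosine (5hmC) enrichment that the authors deposited over them. On the mm9 build the clusters were taken as chr6:52100000-52215000 (HoxA, 115 kb), chr11:96040000-96235000 (HoxB, 195 kb), chr15:102745000-102875000 (HoxC, 130 kb) and chr2:74495000-74610000 (HoxD, 115 kb). Together they hold 38 genes considered here, of which 10 lie in HoxA, 10 in HoxB, 9 in HoxC and 9 in HoxD. Every deposited peak on chromosomes 1 to 19 and X that overlapped a cluster was a member, which gave 1489 of 1601371 peaks over 18 lists. No annotation of mm9 was used here, so peaks were placed by position within a cluster and were not assigned to single genes, exons or introns.

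The cells were pre-iPSCs derived from mouse embryonic fibroblasts (MEFs), which are cells arrested part of the way to induced pluripotent stem cells (iPSCs). Their medium held ascorbic acid at 50 µg/mL and the inhibitors CHIR-99021 and PD-0325901 (together called 2i), and they were sampled at day 0 (D0), day 2 (D2) and day 10 (D10). The treatment label is the same at all 3 days, day 0 included. Wild-type cells (WT) gave 3 libraries a day (A, B and C), and knockout cells gave 2 a day (KO1 and KO2), for which the labels name no deleted gene. Mouse embryonic stem cells (mESC) gave 1 library at each of 0, 12 and 72 h, so they were described without a test. Ascorbic acid at 50 µg/mL is given for the mESC libraries as well, the one at 0 h included. The labels do not say that WT libraries of 1 day came from separate cultures, and a p-value here therefore covers just the spread among these libraries, which may be technical.

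Hox genes encode homeodomain transcription factors that set the identity of cells along the body axis. Their order along each cluster follows the order in which they act from head to tail, and low-numbered genes are generally used earlier and more anteriorly than high-numbered ones. Fibroblasts keep a Hox pattern from the body site they came from, whereas in pluripotent cells the clusters are mostly silent and carry Polycomb marks. 5hmC arises when TET enzymes oxidise methylated cytosine, and ascorbic acid is known to raise TET activity. In the RefSeq order of GRCm38.p6, the low-coordinate end of HoxA is the Hoxa2 end and its high end the Hoxa13 end. HoxB, HoxC and HoxD run the other way, from Hoxb13, Hoxc13 and Hoxd13 at the low end to Hoxb1, Hoxc4 and Hoxd1 at the high end.

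CpG is the dinucleotide whose cytosine is mostly methylated and oxidised in mammals, and 4 promoters of posterior genes are printed to show how widely CpG content ranges within HoxA and HoxD. RefSeq sequences were matched for 22 of the 38 genes, with 24 promoters. These were 9 genes in HoxA, 9 in HoxD, 3 in HoxB and 1 in HoxC, so the promoters mostly describe HoxA and HoxD. Their median was 12.5 CpG in the 250 bases before the start, beside a median of 6 over all 32851 promoters of the table, and 19 of the 24 lay above that median. The 250 bases before the start are printed 5′ to 3′ on the gene's strand with each CG in capitals. Hoxa13, which acts in the distal limb and the hindgut, had 35 CpG (GRCm38.p6, chr6:52260881-52261130, minus strand), and Hoxa9, a posterior gene also used in blood progenitors, had 3 (chr6:52227371-52227620, minus strand). Hoxd13, which acts in the digits, had 31 (chr2:74667975-74668224, plus strand), and the upstream start of Hoxd11, which acts in the forearm, had 2 (chr2:74679308-74679557, plus strand). These coordinates are not on the build of the peaks, so no peak was read at these promoters.
Hoxa13: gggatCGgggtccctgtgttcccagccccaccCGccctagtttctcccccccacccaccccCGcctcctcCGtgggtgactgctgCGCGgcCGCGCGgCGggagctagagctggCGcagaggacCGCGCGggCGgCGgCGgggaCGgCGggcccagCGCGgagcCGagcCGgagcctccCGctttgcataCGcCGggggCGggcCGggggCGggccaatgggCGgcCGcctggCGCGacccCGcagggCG
Hoxa9: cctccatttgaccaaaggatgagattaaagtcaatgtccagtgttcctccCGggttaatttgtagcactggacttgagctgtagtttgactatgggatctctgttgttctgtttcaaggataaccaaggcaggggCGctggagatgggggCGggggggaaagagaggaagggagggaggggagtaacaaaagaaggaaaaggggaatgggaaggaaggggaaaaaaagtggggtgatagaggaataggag
Hoxd13: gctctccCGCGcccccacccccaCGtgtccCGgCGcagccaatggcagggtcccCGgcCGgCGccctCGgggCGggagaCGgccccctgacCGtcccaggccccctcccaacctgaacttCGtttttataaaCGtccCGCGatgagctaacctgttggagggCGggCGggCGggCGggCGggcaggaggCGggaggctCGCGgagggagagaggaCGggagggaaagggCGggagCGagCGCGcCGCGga
Hoxd11: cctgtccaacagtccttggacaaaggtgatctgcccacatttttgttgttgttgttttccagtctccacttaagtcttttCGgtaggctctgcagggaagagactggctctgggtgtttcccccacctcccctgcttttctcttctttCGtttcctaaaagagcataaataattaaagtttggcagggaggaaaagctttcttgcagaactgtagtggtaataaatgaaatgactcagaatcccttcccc

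The deposited lists held 55130 to 160995 peaks in pre-iPSC libraries and 24120 to 33570 in mESC libraries. The longest list was WT D2 A, and the shortest pre-iPSC list was WT D10 C. List lengths overlapped between days, since WT D0 B held 115646 peaks and WT D2 C 106088. WT D0 C, with 61923 peaks, was short beside 92708 and 115646 for WT D0 A and B. Absolute sequencing depth is not known from peak lists. Percent covered is the part of a cluster under any deposited peak. Scaled coverage is the bp per 100 kb under the 55130 strongest peaks of each library by the authors' -log10 p, scaled to a common total. It was used for the main tests, and tests on other peaks or without scaling are named as such.

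All 4 clusters were most covered at D2 in WT cells and least covered at D10, and KO cells at D10 had more of HoxA, HoxC and HoxD covered than WT cells at D10. HoxA was the most covered cluster in each of the 15 pre-iPSC libraries. Its covered part was 12.2%, 18.7% and 5.97% in WT D0 A, B and C, 28.6%, 28.6% and 25.3% at D2, and 6.14%, 4.65% and 3.02% at D10. In KO1 and KO2 it was 15.6% and 9.43% on day 0, 30.0% and 18.5% on day 2 and 28.9% and 19.7% on day 10. The WT D2 libraries lay above all other WT libraries, and both KO D10 libraries lay above all 3 WT D10 libraries.

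HoxD, whose posterior genes pattern the limb, fell to near no coverage at WT D10. WT D0 A, B and C had 9.38%, 13.9% and 4.00% of it under peaks, WT D2 22.7%, 20.2% and 14.8%, and WT D10 0.641%, 1.01% and 0.00%. WT D10 C held no HoxD peak at all, and WT D10 A and B held 2 and 4. In KO1 and KO2 the covered part was 13.1% and 5.10% on day 0, 26.9% and 11.0% on day 2 and 22.0% and 7.21% on day 10.

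HoxC was covered over 5.21%, 9.65% and 5.86% in WT D0 A, B and C, over 11.7%, 10.9% and 8.76% at D2, and over 1.36%, 1.04% and 1.07% at D10. In KO1 and KO2 it was covered over 13.2% and 5.01% on day 0, 15.6% and 7.46% on day 2 and 15.0% and 6.22% on day 10. The WT D10 libraries lay below all other pre-iPSC libraries in HoxC. HoxB, the longest of the 4, was thinly covered: 1.63%, 3.11% and 3.01% in WT D0 A, B and C, 6.85%, 5.97% and 3.82% in the same order at D2, and 1.13%, 0.978% and 0.677% at D10. Its KO1 and KO2 values were 3.47% and 0.849% on day 0, 5.98% and 2.67% on day 2 and 7.20% and 1.87% on day 10. KO2 at D10 therefore stood near the WT D0 level of HoxB and KO1 above every WT library. KO1 was above KO2 in 12 of 12 cluster and day pairs, by gaps that varied in size. Over the genome, KO1 peaks covered more than KO2 peaks at D2 (64.3 against 43.8 Mb) and D10 (52.0 against 43.1 Mb). At D0 they covered less (30.8 against 35.7 Mb).

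**Figure D1:**
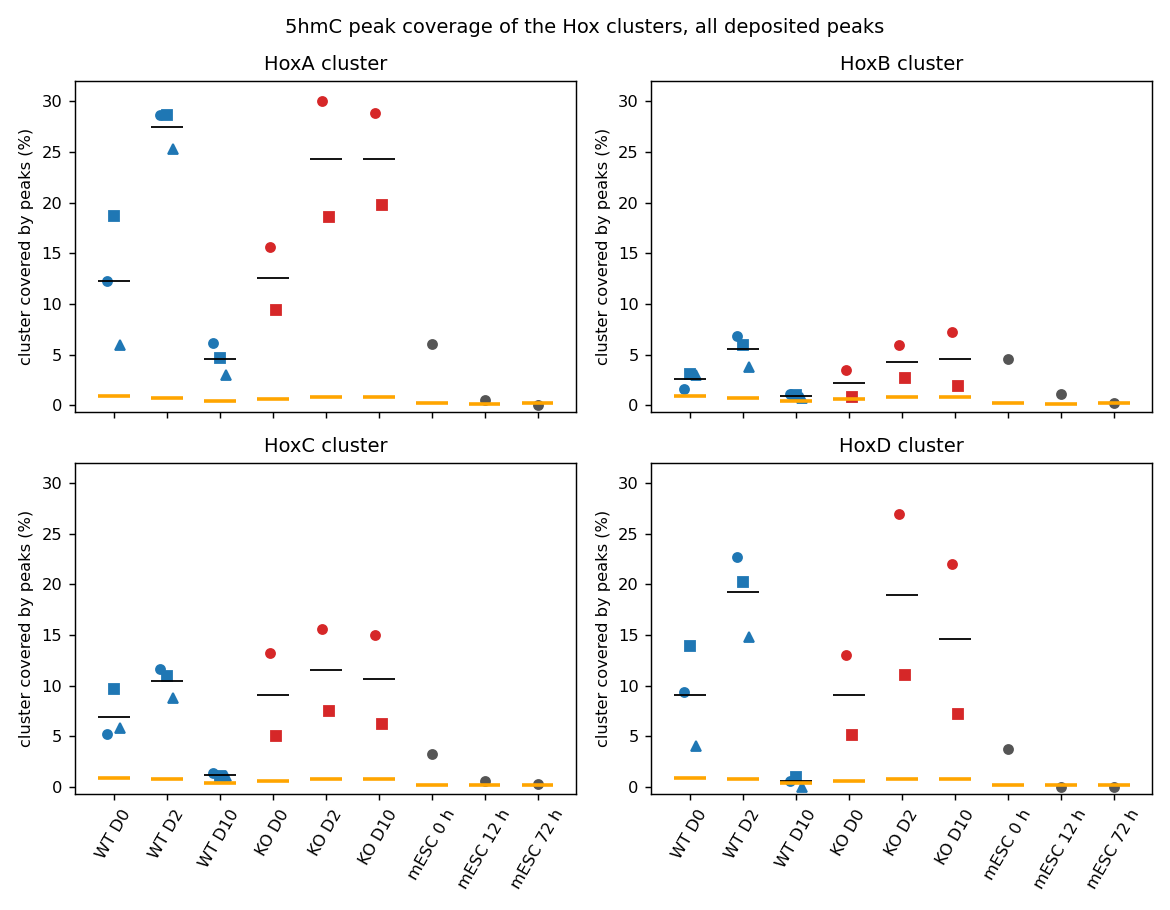
Percent of each Hox cluster covered by deposited 5hmC peaks (y axis) in each library, by group (x axis). Blue points are WT (circle A, square B, triangle C), red points KO (circle KO1, square KO2) and grey points mESC, black lines are group means, and orange lines are the group mean of the median segment of the genome; WT points fall at D10 in all 4 panels, to between 0.00% and 1.01% in HoxD, while KO points do not fall to the WT D10 level in HoxA, HoxC or HoxD.

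The coverage was denser within the clusters than beside them. Percent covered was higher than in the 100 kb on either side together in 15 of 15 pre-iPSC libraries for HoxA and HoxC, and in 14 of 15 for HoxB and HoxD. The exceptions were WT D10 A for HoxB (1.13% against 1.31% in the flanks) and WT D10 C for HoxD (0.00% against 0.110%). At WT D2 the flanks of HoxD were covered over 2.51%, 3.35% and 1.88%, and those of HoxA over 13.9%, 14.7% and 10.3%. Equal segments of the genome, about as long as HoxC, served as background, and the median one was covered over 0.918%, 0.810% and 0.557% in the same 3 libraries. Against the 17726 segments and clusters of the genome, HoxA ranked 32, 14 and 10 in percent covered at WT D2, and 746, 1164 and 1141 at WT D10.

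The HoxA peaks were also described by length and by the authors' own values. The authors' fold enrichment at the strongest HoxA peak was 12.0, 14.3 and 5.33 in WT D0 A, B and C, 17.2, 14.5 and 12.2 in WT D2, and 7.79, 6.25 and 6.15 in WT D10, so WT D0 and D2 overlapped. The median HoxA peak was 593, 563 and 476.5 bp long at WT D2, beside 328, 356 and 342 bp over the whole lists. Of the HoxA peaks, 42.9%, 37.3% and 35.4% were among the strongest 10% of their list at WT D2, 9.09%, 10.8% and 6.25% at WT D0, and 21.1%, 12.5% and 8.33% at WT D10. These lists differ in length, so the shares describe each list and were not tested.

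To compare WT days, covered bp of the 4 clusters were tested with limma beside those segments of the genome, which gave 8419 tested items. From D0 to D2 HoxA rose. Its scaled coverage was 8691, 9646 and 6584 bp per 100 kb in WT D0 A, B and C, and 20029, 20024 and 21450 in WT D2, so the groups did not overlap. The change was 1.27 on the log2 scale (SE 0.18, limma adjusted p = 0.000227). HoxD had 6916, 7436 and 5125 at D0 and 11471, 12349 and 8454 at D2, also without overlap, but its change of 0.68 (SE 0.30) did not pass (limma adjusted p = 0.0877). HoxB changed by 0.41 (SE 0.36, adjusted p = 0.396 by limma) and HoxC by 0.45 (SE 0.29, adjusted p = 0.247 by limma), with overlapping groups. Thus 1 of 4 clusters was called higher, beside 13.6% of all tested items. WT D0 C carried the highest D0 values of HoxB (3166 against 674 and 974) and HoxC (6901 against 3161 and 3453), and without it HoxB and HoxC passed too (changes of 0.91 and 0.77, limma adjusted p = 0.0222 and 0.0315). Without WT D10 C, HoxD passed (limma adjusted p = 0.0216). With all deposited peaks unscaled HoxA missed the threshold (change of 1.26, limma adjusted p = 0.0512) and HoxD passed (change of 1.17, limma adjusted p = 0.0428).

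From D2 to D10 HoxA, HoxC and HoxD fell. HoxD went to 778, 724 and 0 bp per 100 kb in WT D10 A, B and C, a change of -3.56 (SE 0.30, limma adjusted p = 6.50e-07). That was the lowest change of all 8419 tested items, and the groups did not overlap. The WT D10 values lie near or below the 500 bp per 100 kb added before the logarithm, so the size of the HoxD change depends on that addition. Over all alternative settings it was -4.53 to -2.31. HoxC went from 6044, 5727 and 6257 at D2 to 533, 782 and 1618 at D10, a change of -2.19 (SE 0.29, limma adjusted p = 2.75e-05). HoxA went to 5278, 5749 and 4549, a change of -1.88 (SE 0.18, limma adjusted p = 2.04e-06), and it thus kept more scaled coverage at D10 than the other 3 clusters in each WT library. HoxB went from 2631, 1748 and 1663 to 713, 1022 and 1020 without overlap, and its change of -0.80 (SE 0.36) did not pass (limma adjusted p = 0.0780). So 3 of 4 clusters were called lower, beside 22.0% of all tested items. HoxB passed when all deposited peaks were used in place of the strongest (change of -1.20, limma adjusted p = 0.00430), and without WT D0 C (limma adjusted p = 0.0168).

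Across the whole interval from D0 to D10, HoxA, HoxC and HoxD ended below their starting level. The changes were -2.87 for HoxD (SE 0.30, limma adjusted p = 2.36e-06), -1.73 for HoxC (SE 0.29, limma adjusted p = 0.000146) and -0.62 for HoxA (SE 0.18, limma adjusted p = 0.00904). HoxD was the item with the 13th lowest change, whose size also depends on the bp added before the logarithm (-3.81 to -1.73 over all alternative settings). HoxB changed by -0.39 (SE 0.36, limma adjusted p = 0.376). With all deposited peaks HoxB was called lower, by -0.76 when scaled (limma adjusted p = 0.0374) and by -1.08 when unscaled (limma adjusted p = 0.0226), and also with peaks of -log10 q of at least 5 (-0.82, limma adjusted p = 0.0380), whereas its change was 0.0024 with the strongest 27565 peaks and 0.099 without WT D0 C. The 3 clusters called lower stand beside 28.6% of all tested items. The median tested item changed by -0.12, and with each library centred on its median HoxA no longer passed (change of -0.48, limma adjusted p = 0.0599). HoxA also did not pass in the fit of all 15 pre-iPSC libraries (change of -0.62, limma adjusted p = 0.0699), which called 2 clusters lower.

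**Figure D2:**
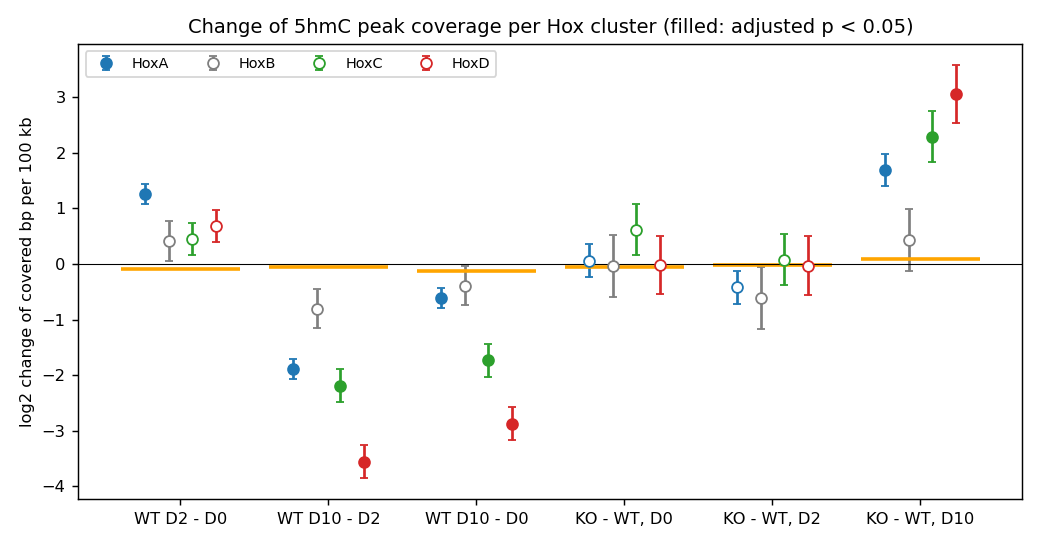
Log2 change of scaled covered bp per 100 kb (y axis) for each cluster in 6 comparisons (x axis), with bars of 1 SE from limma; filled points passed an adjusted p of 0.05 and orange lines mark the median of all tested items. HoxD shows the largest changes in the D10 comparisons (-3.56 from D2, 3.06 between KO and WT), and open points at D0 and D2 show that no cluster passed between KO and WT there.

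KO and WT cells were compared at each day in a fit of all 15 pre-iPSC libraries with 8560 tested items. At D0 none of the 4 clusters passed with limma, and none was under an unadjusted p of 0.05, where 0.0117% of all items were called. At D2 likewise 0 clusters passed and 0 were under an unadjusted p of 0.05, where 0.0% of items were called. The largest change at D0 was 0.62 in HoxC (SE 0.46, limma adjusted p = 0.731). At D2 it was -0.62 in HoxB (SE 0.56, limma adjusted p = 0.744). HoxA at D2 had 16071 and 14361 bp per 100 kb in KO1 and KO2, both under the 3 WT libraries, a difference of -0.42 (SE 0.29, limma adjusted p = 0.658).

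At D10, HoxA, HoxC and HoxD were higher in KO cells. HoxD had 12258 and 4122 bp per 100 kb in KO1 and KO2, against 0 to 778 in WT. The difference was 3.06 (SE 0.53, limma adjusted p = 0.00125), the second highest of all items. With WT this low, its size depends on the bp added before the logarithm, and it was 1.92 to 3.99 over all alternative settings. HoxC had 10177 and 3926 against 533 to 1618, a difference of 2.29 (SE 0.46, limma adjusted p = 0.00330). HoxA had 18781 and 16822 against 4549 to 5749, a difference of 1.69 (SE 0.29, limma adjusted p = 0.00125). HoxB had 2757 and 623 against 713 to 1022, so its groups overlapped, and it did not pass (difference of 0.44, SE 0.56, limma adjusted p = 0.609). The 3 clusters called higher stand beside 10.7% of all tested items. Without KO1 at D10 the call in HoxC was lost (difference of 1.65, limma adjusted p = 0.0616) while HoxA and HoxD passed, and the HoxB difference turned to -0.33. With all deposited peaks unscaled the HoxB difference was 1.59 and passed (limma adjusted p = 0.0193).

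Between days within KO cells no cluster passed with limma. The background of calls was 0.607% from D0 to D2, 0.0% from D2 to D10 and 0.28% over the whole interval, and 1, 0 and 1 clusters were under an unadjusted p of 0.05. HoxA went from 13883 and 5242 bp per 100 kb in KO1 and KO2 at D0 to 16071 and 14361 at D2. Its change from D0 to D10 was 1.01 (SE 0.32, limma adjusted p = 0.138). That change passed with KO1 and KO2, and also the WT letters, as a block (limma adjusted p = 0.0397). Without KO1 at D0, 1 cluster passed from D0 to D2 and 1 from D0 to D10.

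The test of the difference between KO and WT in their change over time was made for each pair of days. The change from D2 to D10 differed between KO and WT in HoxA by 2.11 (SE 0.42, limma adjusted p = 0.0136) and in HoxD by 3.09 (SE 0.74, limma adjusted p = 0.0356), and did not pass in HoxC (2.21, SE 0.65, limma adjusted p = 0.0676) or HoxB (1.06, SE 0.79, limma adjusted p = 0.471). With KO1 and KO2, and also the WT letters, as a block HoxC passed as well (limma adjusted p = 0.00190). The change from D0 to D10 differed in HoxA (1.63, limma adjusted p = 0.0400) and HoxD (3.08, limma adjusted p = 0.0338), and in HoxC only with the block (1.67, limma adjusted p = 0.0115 against 0.138). The background of higher calls was 1.88% and 1.87% for these 2 differences and 0.0% for D0 to D2, where 0 clusters passed and 0 were under an unadjusted p of 0.05. Without KO1 at D10 none of the 4 clusters passed in either difference, although the D2 to D10 difference was still 2.03 in HoxA (limma adjusted p = 0.0542) and 2.35 in HoxD (limma adjusted p = 0.144). HoxD also lost the D2 to D10 call without WT D0 A, WT D2 A, B or C, WT D10 B or C, or KO2 at D2 (limma adjusted p = 0.0512 to 0.0987 over these), with differences of 2.44 to 3.31. With all deposited peaks unscaled HoxA missed the threshold in the D2 to D10 difference (2.52, limma adjusted p = 0.0507) and HoxC passed (2.57, limma adjusted p = 0.0433). From D0 to D10, 0 clusters passed without WT D0 A or B, WT D10 B or C, or KO2 at D0, and 1 passed without WT D2 A, B or C or WT D10 A.

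To place the changes inside the clusters, 10 kb windows of the whole genome were tested in the same way. Of 58 windows that overlap a cluster, 20 held enough covered bp in the WT fit, 9 in HoxA, 1 in HoxB, 4 in HoxC and 6 in HoxD, and they are not all windows of the clusters. The rest of each cluster was too thinly covered to enter. A window entered by its mean over all libraries of the fit, so a single high group could bring it in.

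From D0 to D2, 4 windows rose, 3 in HoxA and 1 in HoxD, beside 14.8% of all tested windows. The largest rise was in chr6:52110001-52120000, near the Hoxa2 end, from 842, 1199 and 363 scaled bp in WT D0 A, B and C to 4555, 4301 and 5128 at D2 (log2 change of 2.36, SE 0.33, limma adjusted p = 0.00229). In the middle of HoxA, chr6:52150001-52160000 rose from 835, 1165 and 1259 to 4501, 4237 and 3944 (1.79, SE 0.21, limma adjusted p = 0.000957). Toward the Hoxa13 end, chr6:52190001-52200000 rose from 1027, 1268 and 345 to 2624, 3124 and 2883 (1.62, SE 0.38, limma adjusted p = 0.0193). In HoxD, chr2:74560001-74570000 rose from 920, 878 and 1000 to 2017, 1967 and 2643 (1.07, SE 0.27, limma adjusted p = 0.0241). In all 4 windows each D2 library was above each D0 library. Without WT D2 A, B or C, 2 windows passed.

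From D2 to D10, 18 of the 20 windows fell and 0 rose, beside 33.2% of all tested windows that fell. The falls lay in 8 windows of HoxA, 1 of HoxB, 4 of HoxC and 5 of HoxD. The window chr6:52190001-52200000 of HoxA had 0 scaled bp in all 3 WT D10 libraries (log2 change of -3.88, SE 0.38, limma adjusted p = 6.70e-05). The 3 HoxD windows with the largest falls were also at 0 in all 3 D10 libraries, chr2:74560001-74570000 (-3.52, SE 0.27), chr2:74510001-74520000 (-3.31, SE 0.43) and chr2:74540001-74550000 (-2.86, SE 0.34). In HoxB, chr11:96060001-96070000 had 982, 1130 and 1318 at D2, scaled over the 9 WT libraries, and 0 in each D10 library (-2.74, SE 0.63, limma adjusted p = 0.00673). Where a group is at 0 the log2 change depends on the 200 bp added before the logarithm and is no bound. The median tested window changed by -0.60, and with each library centred on its median 15 windows still fell.

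From D0 to D10, 12 windows fell and 1 rose, beside 27.1% and 22.7% of all tested windows. The window that rose was chr6:52150001-52160000 in the middle of HoxA, with 2333, 2392 and 1913 scaled bp in WT D10 A, B and C against 835, 1165 and 1259 at D0 (log2 change of 0.91, SE 0.21, limma adjusted p = 0.00581). The largest falls were in chr15:102830001-102840000 of HoxC (-2.97, SE 0.33), from 1315, 1182 and 1852 to 0 in each library, and in chr2:74530001-74540000 of HoxD (-2.59, SE 0.76), from 1062, 1382 and 778 to 0. The HoxD windows starting at 74510001, 74540001 and 74560001 changed by -2.46, -2.46 and -2.45 on the log2 scale.

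Between KO and WT no Hox window passed at D0 or D2, and 0 were under an unadjusted p of 0.05 at either day, where 0.0508% and 0.0254% of all windows were called by limma. The fit of 15 libraries tested 20 windows, 9 in HoxA, 5 in HoxC, 6 in HoxD and none in HoxB, so HoxB was not tested there. At D10, 12 of these 20 windows were higher in KO, 5 in HoxA, 4 in HoxC and 3 in HoxD, and 0 were lower, beside 20.8% of all tested windows that were higher. In chr6:52190001-52200000 KO1 and KO2 had 2796 and 1651 scaled bp where the 3 WT libraries had 0 (3.56, SE 0.84, limma adjusted p = 0.00679). In chr2:74560001-74570000 they had 2003 and 2024 against 0 (3.47, SE 0.66, limma adjusted p = 0.00205). In chr15:102800001-102810000 of HoxC they had 1372 and 987 against 0 (2.77, SE 0.89, limma adjusted p = 0.0329). In chr2:74510001-74520000 KO1 had 2735 and KO2 354 against 0 (2.67, SE 0.70, limma adjusted p = 0.0126). In chr15:102780001-102790000 they had 1446 and 1142 against 0, 0 and 328 (2.43, SE 0.78, limma adjusted p = 0.0328). The median tested window differed by 0.66 between KO and WT, and with each library centred on its median 6 of the 12 calls were left in number; without KO1 at D10 the number was 5.

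Each cluster was also divided into a low, a middle and a high part of equal length, and the parts are described here without a test between them. At WT D2 these parts of HoxA were covered over 32.5%, 29.2% and 20.9% on average (SD 2.70, 2.22 and 2.48, n = 3). At WT D10 they were covered over 4.79%, 9.02% and 0.00% (SD 1.66, 3.03 and 0.00, n = 3), so the part at the Hoxa13 end held no peak in any WT D10 library. At KO D10 that part was covered over 17.9% (SD 5.07, n = 2). In HoxD the middle part went from 20.2% (SD 2.94, n = 3) at WT D2 to 0.00% in all 3 WT D10 libraries, and was 17.5% at KO D10 (SD 10.5, n = 2). In HoxC all 3 parts were lower at D10, going from 10.4%, 11.1% and 9.98% at WT D2 (SD 1.38, 1.99 and 1.33, n = 3) to 1.22%, 0.745% and 1.51% at WT D10 (SD 0.139, 0.075 and 0.443, n = 3). In HoxB the part at the Hoxb1 end went from 7.81% (SD 2.28, n = 3) to 0.491% (SD 0.032, n = 3), and was 8.15% at KO D10 (SD 4.53, n = 2).

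**Figure D3:**
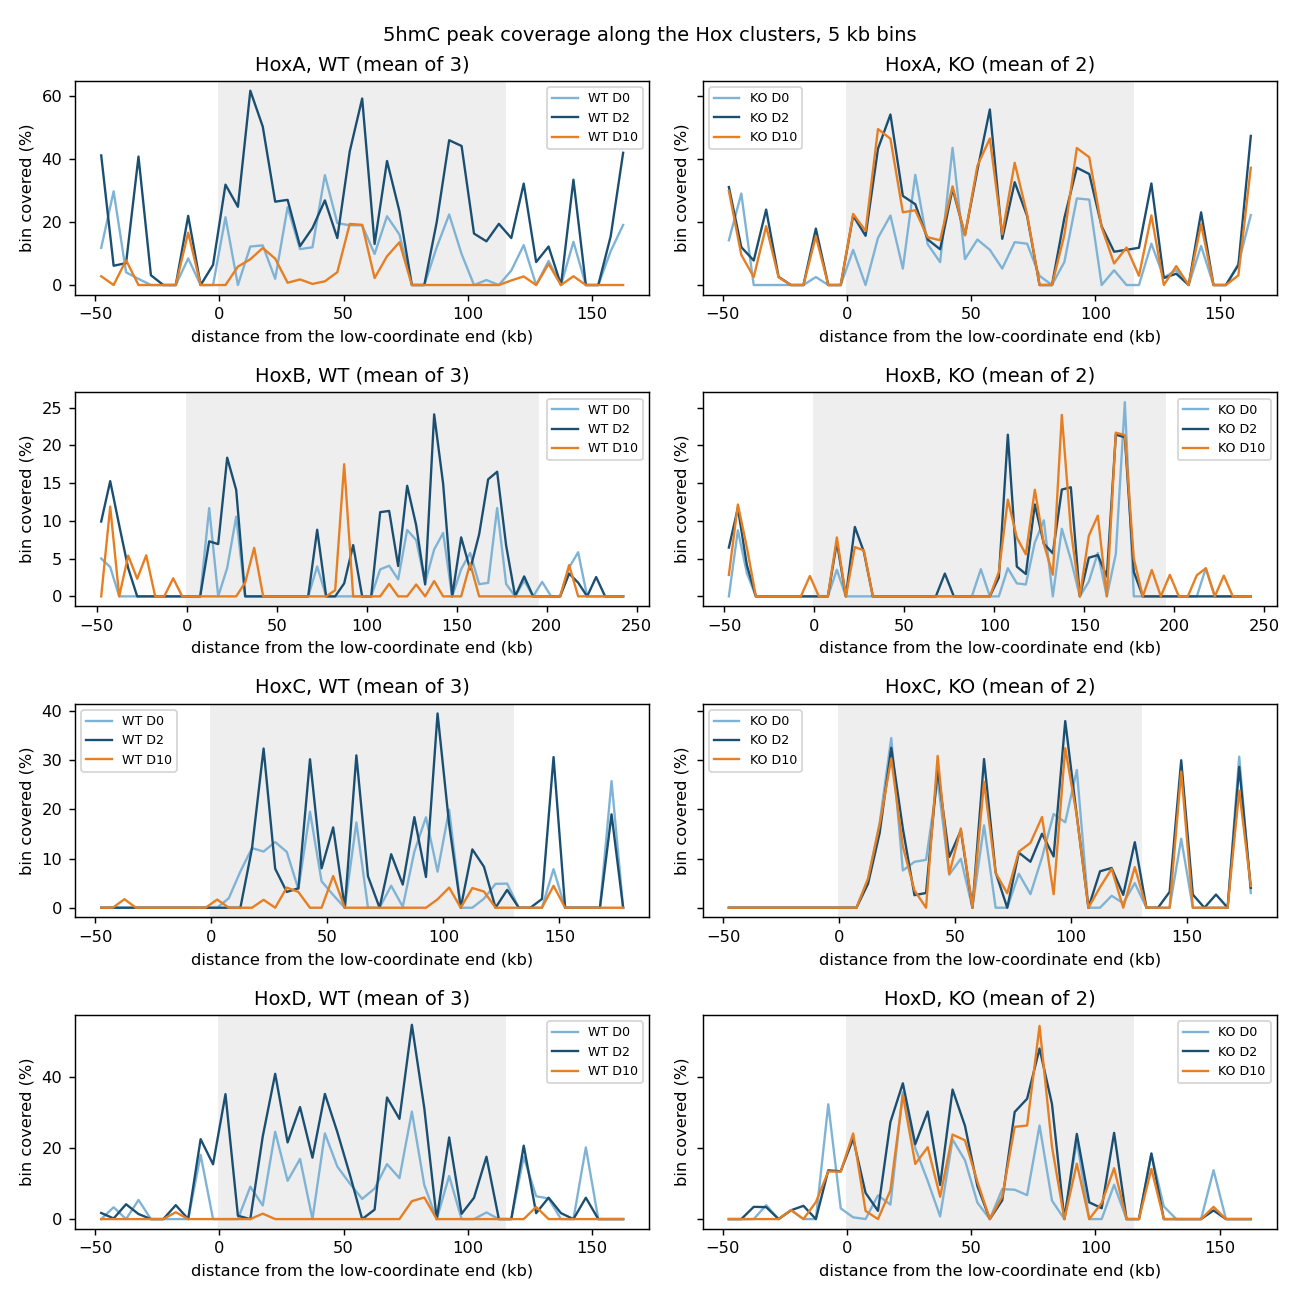
Mean percent of each 5 kb bin covered by deposited peaks (y axis) against distance from the low-coordinate end of the cluster in kb (x axis), with the cluster shaded and 50 kb shown on each side. WT libraries are on the left and KO libraries on the right; the orange D10 line is at 0 over the high part of HoxA and the middle part of HoxD in WT, and runs near the D2 line in KO there.

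Single regions were followed by merging the peaks of the 9 WT lists, which gave 207 regions in the clusters of 296574 in the genome, 62 in HoxA, 49 in HoxB, 44 in HoxC and 52 in HoxD. A region was gained if all 3 later libraries and none of the 3 earlier ones had a peak, and lost in the reverse case. From D0 to D2, 28 Hox regions were gained (13.5%, beside 8.43% of all regions) and 3 were lost (1.45%, beside 2.55%). From D2 to D10, 2 were gained (0.966%, beside 3.36%) and 77 lost (37.2%, beside 13.9%), which are 20 in HoxA, 19 in HoxB, 15 in HoxC and 23 in HoxD. From D0 to D10, 6 were gained (2.90%, beside 6.49%) and 27 lost (13.0%, beside 8.91%). These shares are of all merged regions, including those with a peak in a single library, which could not be called gained or lost. From D2 to D10, 6 Hox regions had a peak in all 6 libraries beside the 77 lost, where 11497 did over the genome beside 41261 lost. From D0 to D10, 4 Hox regions did beside the 27 lost, where 3622 did over the genome beside 26416 lost. Of the 28 regions gained at D2, 23 (82.1%) were lost again by D10, where 54.6% of all gained regions were. D10 lists are shorter than D2 lists, and with the strongest peaks of equal number 30 of 138 Hox regions were lost from D2 to D10 (21.7%, beside 7.85% of all) and 15 were gained from D0 to D2 (10.9%, beside 4.62%). With those peaks the share lost from D0 to D10 (8.70%) was near that of all regions (8.97%), and without WT D0 C 55 Hox regions were lost over that interval (26.6%, where 56356 of all 296574 regions were lost) and 12 from D0 to D2. Leaving out WT D0 A gave 7 lost from D0 to D2. Regions gained from D2 to D10 numbered 4 without WT D2 B or WT D10 C, and those gained from D0 to D10 numbered 11 without WT D10 C.

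The longest lost region was chr2:74516752-74520036 in HoxD (3285 bp), toward the Hoxd13 end. Peaks covered 1276, 2160 and 287 bp of it in WT D0 A, B and C, 2496, 2037 and 1599 bp at D2 and 0 bp in all 3 D10 libraries, while KO1 and KO2 at D10 covered 2819 and 678 bp. In HoxA the longest was chr6:52126440-52128393 (1954 bp), with 849, 1108 and 1002 bp at WT D2, none at WT D10, and 1409 and 644 bp in KO1 and KO2 at D10. In HoxC it was chr15:102805956-102807886 (1931 bp), with 1437, 1473 and 1149 bp at WT D2, none at WT D10, and 1628 and 661 bp in the KO libraries at D10. In HoxB it was chr11:96064287-96065883 (1597 bp), with 1163, 1359 and 1403 bp at WT D2, none at WT D10, and 825 and 437 bp in the KO libraries at D10. The other 2 of the 5 longest lost regions were in HoxD, chr2:74536990-74538728 (1739 bp) and chr2:74573147-74574795 (1649 bp), and both had peaks in KO1 and KO2 at D10.

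The 2 longest gained regions were in HoxA near the Hoxa2 end. In chr6:52117408-52119196 no WT D0 library had a peak, WT D2 A, B and C covered 1620, 1699 and 1609 bp, and D10 still covered 1104, 301 and 276 bp. In chr6:52106617-52107939 WT D2 covered 1304, 1309 and 1120 bp and D10 282, 362 and 234 bp. The next 3, chr2:74512842-74514069, chr2:74497019-74498238 and chr2:74495044-74496119, lie toward the Hoxd13 end of HoxD, and the last 2 of these were lost again by D10. The 3 regions lost from D0 to D2 were short: chr11:96194868-96195363 in HoxB (496 bp), chr15:102758168-102758643 in HoxC (476 bp) and chr6:52103801-52104258 in HoxA (458 bp).

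Against the general loss, 2 regions were gained from D2 to D10, chr11:96078696-96079355 in HoxB (277, 296 and 391 bp in WT D10 A, B and C) and chr15:102795742-102796152 in HoxC (343, 285 and 340 bp). Neither had a peak in a KO library of any day. A further HoxB region, chr11:96124878-96126027, had no peak at WT D0, 0, 258 and 0 bp at D2 and 565, 1062 and 625 bp at D10, with none in the KO libraries and 977 bp in mESC at 0 h. The 6 regions with a peak in all 3 libraries of both D2 and D10 were all in HoxA, and they are 2.90% of the Hox regions, beside 3.88% of all regions. Among them chr6:52169849-52171213 had a peak in 17 of 18 lists, missing only in mESC at 72 h, and covered 893, 935 and 378 bp at WT D10. The regions found in the most lists elsewhere were chr2:74578163-74579203 in HoxD (14 lists) and chr15:102768571-102769049 in HoxC (13 lists).

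The 77 regions lost from WT D2 to D10 were read in the KO and mESC lists. KO1 at D10 had a peak in 68 of them (88.3%, beside 76.7% of all lost regions of the genome) and KO2 in 46 (59.7%, beside 53.2%). At D2 the numbers were 69 (89.6%, beside 84.2%) and 50 (64.9%, beside 62.2%), near the shares over all lost regions. At D0 they were 44 (57.1%, beside 40.1%) and 25 (32.5%, beside 42.2%), so KO2 at D0 held a smaller share than over all lost regions. By cluster, KO1 at D10 had 18 of 20 in HoxA, 13 of 19 in HoxB, 14 of 15 in HoxC and 23 of 23 in HoxD, and KO2 had 15, 6, 11 and 14. HoxB regions were thus least often present in both KO libraries, a difference that was not tested. mESC lists had a peak in 9, 0 and 0 of the 77 at 0, 12 and 72 h (11.7%, 0.0% and 0.0%), beside 12.9%, 5.36% and 0.475% of all lost regions, so the share at 0 h was near that of all lost regions.

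**Figure D4:**
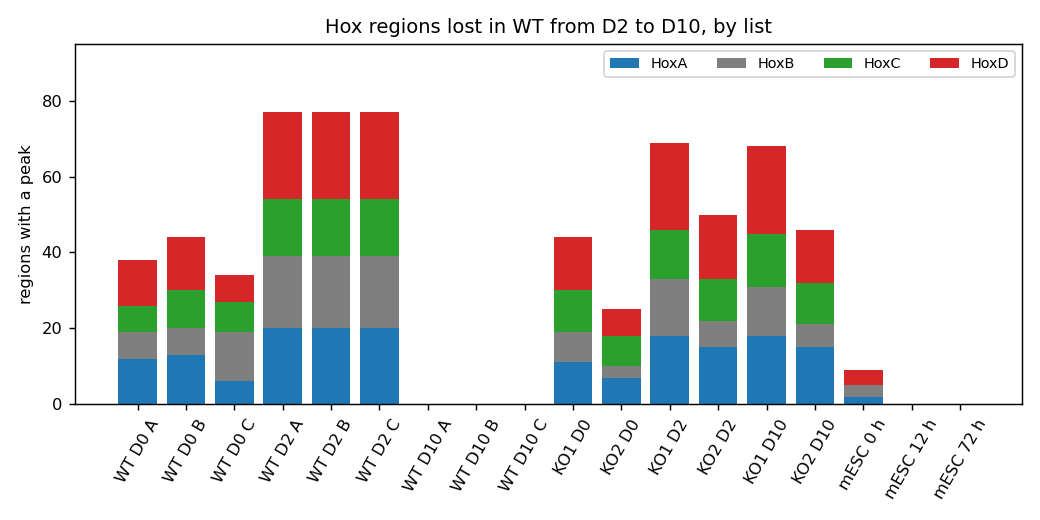
Number of the 77 Hox regions lost in WT from D2 to D10 that hold a peak (y axis) in each list (x axis), stacked by cluster. The WT D2 and D10 bars are fixed at 77 and 0 by the definition of a lost region; at D10 KO1 holds 68 and KO2 46, and mESC lists hold 9, 0 and 0.

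In mESC, with a single library a time, all 4 clusters were more covered at 0 h than at 12 or 72 h. At 0 h HoxA, HoxB, HoxC and HoxD were covered over 6.02%, 4.55%, 3.21% and 3.77%, beside 0.198% for the median segment, and ranked 3, 14, 96 and 41 of the 17726 segments and clusters. At 12 h they were covered over 0.545%, 1.16%, 0.548% and 0.00%, beside a median segment at 0.177%, so HoxA, HoxB and HoxC were still above it. At 72 h they were covered over 0.00%, 0.220%, 0.257% and 0.00%, beside a median segment at 0.186%, with 2 Hox peaks in all against 68 at 0 h, in lists of 24120 and 30783 peaks. HoxB, the least covered cluster in WT pre-iPSC libraries at D2, was the second most covered in mESC at 0 h. A label says that peaks were not called for mESC samples, yet each has a list of the same layout, which was used as deposited.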

How the data were processed

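5hmC was captured from sonicated genomic DNA (200 to 500 bp, per the labels' protocols) of 18 libraries with a peak list, 9 WT, 6 KO and 3 mESC; an input library has no list here. The build mm9 and the tools Bowtie, SAMtools and MACS2 come from the submitters' processing notes, whose text names no version. Each deposited list gives, per peak, the authors' score, fold enrichment as a linear ratio, and -log10 p and q, which only ranked or described peaks within a list. Depth is not given, and the number of libraries limits precision.

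Coverage was computed with numpy 2.4.6 and pandas 2.3.3 on chromosomes 1 to 19 and X. The 55130 strongest peaks per pre-iPSC library (the shortest list) were scaled to the mean total. The 4 clusters stood in place of the equal segments (about the length of HoxC) they overlap. limma 3.58.1 (R 4.3.3; lmFit, eBayes with trend and robust) tested log2(bp per 100 kb + 500), or log2(bp + 200) in 10 kb windows, where the mean was at least 500, with Benjamini-Hochberg adjustment at 0.05 over all segments or windows. WT days were fitted on 9 libraries and KO contrasts on 15. The WT models were tested on simulated data for the change from D0 to D2 only, and the fit of 15 libraries and the block were not.

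Groups came from titles. KO1 and KO2 name the knockouts, and they pair KO libraries across days (correlation of same-name deviations 0.423 to 0.538). The main fits left this pairing out, and it entered only in the replicate block, which also held the WT letters. WT letters did not pair (-0.079 to 0.057). All clusters were named in every contrast. Windows named are those past the threshold with groups that do not overlap, up to 5 rises and 5 falls a contrast. Named regions were the 5 longest ones gained or lost in a contrast, the longest per cluster and the one in most lists. The members, lists and tests were chosen with earlier results of these data known. No gene was placed by coordinate. Alternatives changed the peaks used, pseudocount, filter, centring, window size, block, overlap, cluster boundaries and libraries.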

Additional observations from a re-analysis of the deposited data

Results flagged for a closer look

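In the main fit the change between days differed between KO and WT cells in 2 clusters, by a test of the difference itself (limma, adjusted over all 8560 tested items). From D2 to D10 the difference was 2.108 on the log2 scale in HoxA (SE 0.416, limma adjusted p = 0.0136) and 3.09 in HoxD (SE 0.744, limma adjusted p = 0.0356). From D0 to D10 it was 1.627 in HoxA (limma adjusted p = 0.0400) and 3.081 in HoxD (limma adjusted p = 0.0338). With KO1 and KO2, and also the WT letters, as a block HoxC passed in both differences too (limma adjusted p = 0.00190 and 0.0115). HoxD lost the D2 to D10 call with a pseudocount 4 times larger (1.93, limma adjusted p = 0.0675) and without any of several single WT libraries. From D0 to D10, 0 clusters passed without WT D0 A or B, or WT D10 B or C. In HoxA and HoxD every WT D10 library had less scaled coverage than every WT D0 and D2 library. In KO cells the HoxA change from D2 to D10 was 0.22 (SE 0.32) and the HoxD change -0.50 (SE 0.58), neither past the threshold. KO1 had more coverage than KO2 in each cluster and day, and without KO1 at D10 neither difference passed in any cluster. The D2 to D10 difference was then 2.03 in HoxA (limma adjusted p = 0.0542) and 2.35 in HoxD (limma adjusted p = 0.144).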

How the results depend on the processing

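Over 440 recomputed log2 changes of the clusters (3 WT contrasts, KO against WT at D10 and the D2 to D10 difference between KO and WT), 437 kept their direction and 397 their side of the threshold. The 3 that turned were all in HoxB and uncalled: D0 to D10 became 0.0024 with fewer strongest peaks (27565) and 0.099 without WT D0 C (-0.71 to 0.099 leaving out libraries), and KO against WT at D10 became -0.33 without KO1 at D10 (-0.33 to 1.21). The cause was not tested.

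Clusters higher from D0 to D2 numbered 2 in place of 1 with 27565 peaks, a pseudocount 4 times larger, centring, the replicate block or 250 kb segments, and 1 to 3 with 1 library left out; with all deposited peaks unscaled it stayed 1, but the cluster called was HoxD, not HoxA. With 1 library left out, clusters lower from D2 to D10 numbered 3 to 4. For KO from D0 to D10 the block gave 1 and leave-one-out 0 to 1, also 0 to 1 for KO from D0 to D2. The D2 to D10 difference between KO and WT gave 1 cluster with the larger pseudocount, and 0 to 3 leaving out libraries. The D0 to D10 difference gave 1 with 27565 peaks, with the larger pseudocount and with centring, and 0 to 3 leaving out libraries.

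Windows higher from D0 to D2 numbered 7 with unscaled deposited peaks or the larger pseudocount, 2 with a pseudocount divided by 4 or all 15 libraries in the fit, and 2 to 6 leaving out libraries. Windows lower from D2 to D10 numbered 29 (unscaled), 11 (27565 peaks) and 10 (20 kb windows). From D0 to D10 they numbered 20 (all peaks, scaled), 22 (unscaled), 4 (27565 peaks) and 6 (20 kb). Windows higher in KO at D10 numbered 26 (all peaks, scaled), 29 (unscaled), 19 (-log10 q of at least 5) and 6 (centring), and 5 to 14 leaving out libraries.

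With the strongest peaks, regions gained numbered 15 (D0 to D2) and 3 (D0 to D10), and lost 30 (D2 to D10) and 12 (D0 to D10). Leaving out libraries gave 3 to 12 lost from D0 to D2, 2 to 4 gained from D2 to D10, and 6 to 11 gained and 27 to 55 lost from D0 to D10. A 200 bp overlap changed no count, but this was no independent check. The regions were merged from the same WT peaks and hold each of them whole. WT letters do not pair the libraries; the replicate block on letters called HoxD from D0 to D2 (limma adjusted p = 0.0324) and changed no other WT cluster call.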
